A study of Mus musculus with 4 samples.

Results

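Progenitor spermatogonia are the undifferentiated male germ cells that have begun to leave the stem cell state. Transcripts of 8 genes used to mark them, or to follow them towards differentiation, were examined after loss of *Cnot3*: *Neurog3*, *Sox3*, *Lin28a*, *Lin28b*, *Upp1*, *Ddit4*, *Sohlh1* and *Sohlh2*. The genes were taken by symbol from count files that list 54920 genes. All 8 were found, and all 8 were among the 23952 genes with enough reads to be tested. Each had at least 55 reads in every library, so no member entered the test through 1 group alone.

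RNA had been sequenced from ID4-EGFP+ cells sorted from mouse testes at postnatal day 8, as 2 control and 2 *Cnot3*-cKO libraries. The study's figure legend gives 3 biological replicates for this comparison, so the libraries used here differ in number from those it reports. *Cnot3* encodes a subunit of CCR4-NOT, the complex that shortens mRNA poly(A) tails. The sample labels call the controls wild-type, and by the study's methods all animals carried floxed *Cnot3* alleles and the *Id4-eGfp* transgene. All received 4-OHT, the active form of tamoxifen, from day 1 to day 3. *Cnot3*-cKO animals also carried *Ddx4*-creER, a tamoxifen-inducible Cre under the promoter of a germ cell gene, which the controls lacked, so the presence of Cre and the loss of *Cnot3* cannot be told apart here. EGFP followed *Id4*, a marker of spermatogonial stem cells (SSCs), and the sort was made on the transgene and not on any of the 8 genes. How many animals went into a library is not given in the sources used here. The p-values therefore rest on the spread between libraries, as modelled across genes, and not on a known number of animals.

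Undifferentiated spermatogonia pass from stem cells through progenitors to differentiating cells that express KIT. NEUROG3, a basic helix-loop-helix (bHLH) transcription factor, and SOX3, a high-mobility-group factor, are switched on as progenitors form. LIN28A and LIN28B are RNA-binding proteins that block maturation of the let-7 microRNAs. SOHLH1 and SOHLH2 are germ cell bHLH factors needed for differentiation. DDIT4 restrains the growth kinase complex mTORC1, and UPP1 is uridine phosphorylase, an enzyme of pyrimidine salvage.

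LIN28 and let-7 restrain each other, since let-7 pairs with sites in the 3′ untranslated regions (UTRs) of both *Lin28* mRNAs. Mature let-7 sequences, from RefSeq on GRCm38.p6, are shown here because the seed (bases 2 to 8, in capitals) is what defines those sites. All 10 distinct mature names of the family that were looked up carry the same seed.
let-7a-5p: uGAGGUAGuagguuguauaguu
let-7g-5p: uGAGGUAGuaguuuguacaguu
miR-98-5p: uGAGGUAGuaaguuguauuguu

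The pairing heptamer CTACCTC (sense strand only) occurred 2 times in the 3′ UTR of *Lin28a* (2775 bases) and 4 times in that of *Lin28b* (4445 bases), and in none of the other 6 members. It was found in 9.14% of 15147 tested genes with a 3′ UTR of at least 50 bases, whose median length was 955 bases. Those in the paralogs are printed 5′ to 3′ on the gene strand, from GENCODE M21 transcripts on GRCm38 (also called mm10), with the match in capitals.
*Lin28a*, chr4:134005179-134005207, reverse strand: agcctgttgaaCTACCTCatttttgccga
*Lin28a*, chr4:134004541-134004569, reverse strand: tcgccacaaacCTACCTCactgtgttgaa
*Lin28b*, chr10:45381012-45381040, reverse strand: gggcgggaagtCTACCTCatgcaagcaca
*Lin28b*, chr10:45378638-45378666, reverse strand: cttgttagtaaCTACCTCtgagtttgaca
*Lin28b*, chr10:45378466-45378494, reverse strand: acagcacatggCTACCTCccagctaccac
*Lin28b*, chr10:45377050-45377078, reverse strand: gatggcaccgaCTACCTCttcaatcactt

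The same 3′ UTRs were searched for motifs bound by proteins that recruit CCR4-NOT. The Pumilio element TGTANATA, present in 23.8% of these UTRs, occurred 1 time in *Lin28a* and 2 times in *Lin28b*. An AU-rich heptamer, TATTTAT, present in 27.2%, occurred 1 time in *Lin28b*. None of the other 6 members held either motif, and their UTRs were shorter, from 70 bases in *Upp1* to 921 in *Sohlh2*. The Pumilio matches are shown because *Lin28a* and *Lin28b* were the only members that held them.
*Lin28a*, chr4:134004352-134004381, reverse strand: tggcctagttgTGTAAATAtaaatgtgttg
*Lin28b*, chr10:45380688-45380717, reverse strand: gtgtgtgtgtaTGTAGATAaaagcacatac
*Lin28b*, chr10:45380199-45380228, reverse strand: ggggagggtaaTGTATATAgtaacatggtc

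The libraries held 40957899 and 43378493 counted reads in controls, against 22192964 and 28019626 in *Cnot3*-cKO cells. *Cnot3* itself was counted 2362 and 2114 times in controls, and 435 and 571 times in *Cnot3*-cKO cells, a log2 fold change of -1.48 (standard error 0.13). Levels are given as CPM (counts scaled to library size with TMM factors). Summed over the pan-germ cell list, which includes *Ddx4* and *Dazl*, controls had 5510 and 5882 CPM and *Cnot3*-cKO libraries 4950 and 5131 CPM. Transcripts of other testis cells were present in all libraries, and their summed levels were higher in *Cnot3*-cKO. The summed level of 10 Sertoli cell genes was 247 to 266 CPM in controls and 609 to 644 CPM in *Cnot3*-cKO, that of 5 Leydig cell genes 322 to 368 and 831 to 896 CPM, that of 7 macrophage genes 120 to 192 and 348 to 425 CPM, that of 5 endothelial genes 30.2 to 31.0 and 42.3 to 50.6 CPM and that of 5 peritubular myoid genes 13.6 to 16.2 and 19.95 to 24.9 CPM. *Ctsl*, *Hsd3b1* and *Mrc1* weighed most in the Sertoli, Leydig and macrophage sums, in that order. The log2 fold changes of *Tagln* (-0.63) and *Cnn1* (-0.21) of myoid cells and *Cd14* (-0.30) of macrophages were below 0. Of these lists, 8 of 10, 5 of 5, 6 of 7, 2 of 5 and 1 of 5 tested genes rose, against 6.21% of all genes tested. The myoid gene, *Acta2*, was not past the limit without *Cnot3*-cKO replicate 2, nor the endothelial *Kdr* without *Cnot3*-cKO replicate 1, nor the macrophage genes *Mrc1* and *Csf1r* with robust dispersions. Among the defining markers only *Insl3* of Leydig cells was at 0 reads in every library. The part of these cells in the differences below was not tested, and the values were therefore also computed after scaling to the pan-germ cell list. That scaling uses the summed reads of the list, in which *Dazl* weighs most. *Dazl* had 2339 and 2634 CPM in controls, against 2024 and 2263 CPM in *Cnot3*-cKO libraries (log2 fold change -0.21). *Ddx4* was at 0.045.

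Most progenitor genes were lower in *Cnot3*-cKO cells. By the quasi-likelihood test of edgeR, at a Benjamini-Hochberg adjusted p under 0.01 over all genes tested, *Neurog3*, *Sox3*, *Lin28a*, *Lin28b* and *Sohlh2* fell, and none of the 8 rose. This was 5 of 8 members, against 4.70% of all genes tested that fell, and 0 of 8 against 6.21% that rose. The members, and the lists below, were chosen with earlier results of these data known, so such shares are a description and no test. *Neurog3*, *Sox3* and *Lin28a* also fell more than 2-fold, which was true of 0.735% of all genes, while 4.03% rose as far and no member did. Only *Neurog3* was beyond 2-fold under all 14 alternatives run: *Sox3* (-0.95) and *Lin28a* (-0.91) were within it after pan-germ cell scaling, and *Sox3* was just within it without control replicate 2. The median log2 fold change of the 8 genes was -0.62, and that of all genes tested was 0.0089. In 7 members both *Cnot3*-cKO libraries lay below both controls, as did 28.6% of all genes, and *Sohlh1* was the exception. The reverse order, both *Cnot3*-cKO libraries on top, was seen in 0 members and in 30.5% of all genes. Over all genes 1488 rose and 1125 fell, a split that was 1728 to 779 when scaled by library size only and 2123 to 344 when scaled to pan-germ cell genes. In bulk RNA, fewer progenitors among the sorted cells and less RNA per progenitor cannot be told apart. The smallest two-sided p that exact permutation allows in this design is 0.333, and each adjusted p below draws on the spread modelled across genes.

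**Figure D1:**
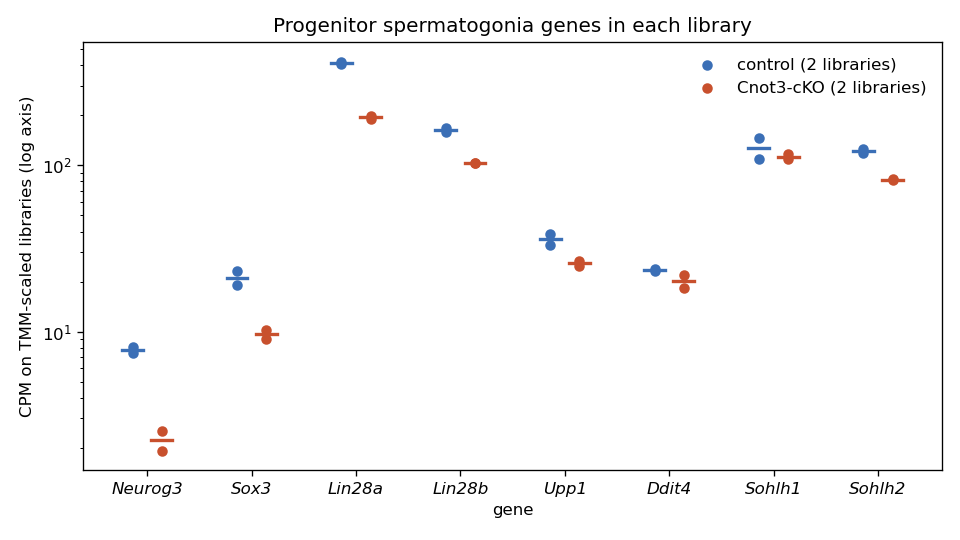
Level of each progenitor gene in each library, as CPM on TMM-scaled libraries (log axis); points are the 2 control and 2 *Cnot3*-cKO libraries and bars are group means. The groups are separate for every gene except *Sohlh1*, whose control libraries lie at 109 and 146 CPM on either side of both *Cnot3*-cKO libraries.

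*Neurog3* showed the largest difference of the 8. It lies on chromosome 10, from 62133090 to 62134763 on the forward strand of GRCm38, and 273 bases of its exons overlap *Fam241b* on the other strand. Control libraries held 324 and 313 of its reads and *Cnot3*-cKO libraries 57 and 55, where the exact 95% Poisson intervals (counting error only) were 43.2 to 73.9 and 41.4 to 71.6 reads. In CPM these were 8.04 and 7.44 in controls, against 2.52 and 1.92 in *Cnot3*-cKO cells. The *Cnot3*-cKO libraries thus lay well below both controls. *Neurog3* fell by 1.81 on the log2 scale (standard error 0.26, adjusted p = 4.46e-04), to a level 3.51-fold lower, and 153 of the genes tested had a lower value. Among its paralogs *Neurog1* had 0 reads in all libraries and *Neurog2* had 4 in total. The log2 fold change of *Fam241b*, looked up after the overlap was seen, was -0.51, and without a stated strand setting its reads over the shared bases cannot be told from those of *Neurog3*.

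*Sox3*, an X-linked gene (60891366 to 60893430, reverse strand), was counted 766 and 971 times in controls, and 231 and 258 times after deletion. These were 19.0 and 23.1 CPM against 10.2 and 9.01 CPM. Both *Cnot3*-cKO libraries were below both controls, and the gap between groups exceeded that between the controls. *Sox3* fell by 1.13 on the log2 scale (standard error 0.17, adjusted p = 7.80e-04). Of its close relatives, *Sox2* had 12 and 16 reads in controls, against 10 and 26 in *Cnot3*-cKO cells, and *Sox1* had from 2 to 18 reads per library and was not tested. In all, 3 of 8 paralogs of the bHLH and SOX members had enough reads to be tested, and by edgeR 0 passed in either direction, with 1 at an unadjusted p under 0.05 (*Neurod1*, 22 and 39 reads against 3 and 4, named after its values were seen).

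*Lin28a* and *Lin28b* both fell, and *Lin28a* fell further. *Lin28a* (chromosome 4, 134003330 to 134018841, reverse strand) had the most reads of the members, not corrected for gene length. These were 16915 and 17218 in controls, against 4505 and 5472 after deletion. Its level was 420 and 409 CPM in controls and 199 and 191 CPM in *Cnot3*-cKO cells. The spread within each group was small beside the gap between them. *Lin28a* fell by 1.09 on the log2 scale, with a standard error of 0.08, a 95% interval of -1.26 to -0.92 and an adjusted p of 3.85e-06, to a level 2.13-fold lower.

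*Lin28b* (chromosome 10, 45376620 to 45486395, reverse strand) had 158 and 169 CPM in controls and 103 and 104 CPM in *Cnot3*-cKO cells, from 6383 and 7100 against 2343 and 2969 reads. The 2 *Cnot3*-cKO libraries were nearly equal, and both were below the controls. *Lin28b* fell by 0.66 on the log2 scale (standard error 0.09, 95% interval -0.85 to -0.47, adjusted p = 2.84e-04). The intervals of the paralogs did not overlap. Within a library, *Lin28a* had 2.65 and 2.43 reads per *Lin28b* read in controls, against 1.92 and 1.84 in *Cnot3*-cKO cells, so the ratio was lower in both *Cnot3*-cKO libraries, although a permutation test of it cannot pass with 2 libraries a group. Both genes hold let-7 and Pumilio matches, with more of each in *Lin28b*, whose 3′ UTR is longer (4445 against 2775 bases). The part of these sites in the differences was not tested.

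Around the *Lin28* genes the changes went both ways, from -0.47 to 0.69 on the log2 scale. Of 15 LIN28 and let-7 pathway genes tested, 2 rose and 3 fell, against 6.21% and 4.70% of all genes tested. Their median log2 fold change was -0.13. The terminal uridylyltransferases TUT4 and TUT7, which add uridines to let-7 precursors held by LIN28, moved apart at the transcript level. *Tut7* had 43.9 and 39.2 CPM in controls and 69.2 and 65.0 CPM in *Cnot3*-cKO cells and rose by 0.69 on the log2 scale (standard error 0.11, adjusted p = 9.54e-04). *Tut4* had 246 and 226 CPM against 177 and 174 CPM and fell by 0.42 (adjusted p = 0.00386). *Dicer1*, which cuts precursors to mature microRNAs, fell by 0.47 (adjusted p = 9.50e-04), and *Drosha*, which makes the precursors, rose by 0.39 (adjusted p = 0.00618). *Drosha* lies outside the naming rule and is given because only 5 genes of the list passed.

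*Trim71*, a classic let-7 target in development, had 766 and 691 CPM in controls and 546 and 553 CPM in *Cnot3*-cKO cells and fell by 0.41 (adjusted p = 0.00325). *Trim71*, *Tut4* and *Dicer1* were no longer past the limit after scaling to pan-germ cell genes, nor were *Trim71* and *Tut4* without either *Cnot3*-cKO library or after upper quartile scaling, *Tut4* after scaling by library size, or *Dicer1* without *Cnot3*-cKO replicate 2. *Drosha* was not past it without either *Cnot3*-cKO library. The files list 12 let-7 and *Mir98* precursor genes, which together had 16 to 37 reads per library. Of these, 1 had enough reads to be tested. Mature let-7 was not measured.

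**Figure D2:**
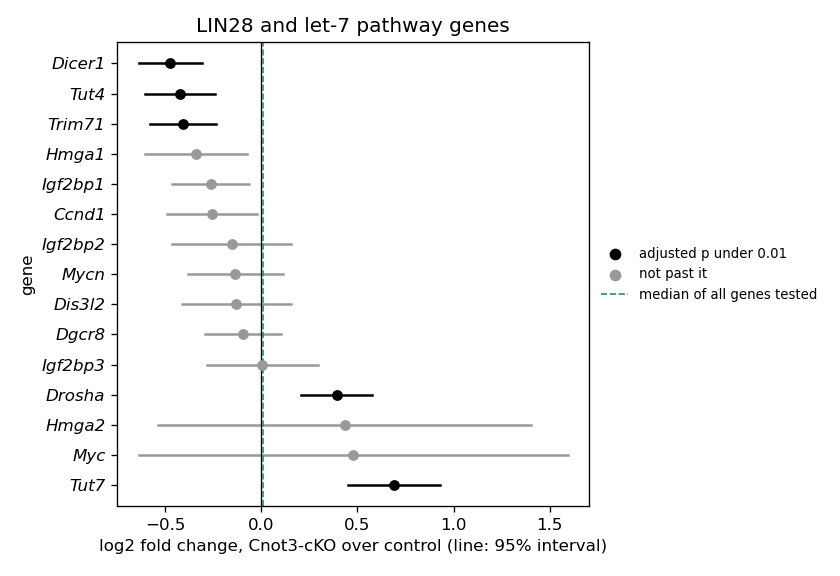
Log2 fold change of the 15 tested LIN28 and let-7 pathway genes, *Cnot3*-cKO over control, with 95% intervals (edgeR). Black marks genes with an adjusted p under 0.01 and grey those not past it, and the dashed line is the median of all genes tested. *Dicer1*, *Tut4* and *Trim71* lie below 0 and *Drosha* and *Tut7* above it.

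Of the partners *Sohlh1* and *Sohlh2*, the latter fell and the former did not pass the test, but their 95% intervals overlapped (-0.45 to 0.09 and -0.77 to -0.38). *Sohlh2* (chromosome 3, 55182028 to 55209957, forward strand) was counted 4780 and 5279 times in controls, and 1873 and 2335 times after deletion, or 119 and 125 CPM against 82.7 and 81.5 CPM. The groups were well separated. *Sohlh2* fell by 0.57 on the log2 scale (standard error 0.09, adjusted p = 9.27e-04), but after scaling to pan-germ cell genes its adjusted p was 0.0117.

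*Sohlh1* (chromosome 2, 25842995 to 25847248, reverse strand) had 109 and 146 CPM in controls and 109 and 116 CPM in *Cnot3*-cKO cells, from 4380 and 6145 against 2464 and 3336 reads. Control replicate 2 stood above the other 3 libraries, which were close together. The log2 fold change was -0.18 (standard error 0.12, 95% interval -0.45 to 0.09, adjusted p = 0.359). The value moved with the control library kept: *Sohlh1* was at -0.39 (adjusted p = 3.97e-04) without control replicate 1 and at 0.039 (adjusted p = 0.860) without control replicate 2. Each of these fits has 1 control library, assumed to vary like the *Cnot3*-cKO pair, so its p is no support for a call. There were 0.916 and 1.16 *Sohlh1* reads per *Sohlh2* read in controls, against 1.32 and 1.43 in *Cnot3*-cKO cells, higher in both *Cnot3*-cKO libraries, a ratio that permutation cannot call in this design.

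SOHLH1, SOHLH2 and NEUROG3 bind E-boxes (CANNTG, the same on both strands), which occur in 65.5% of 13955 promoters of tested genes, windows around the start site taken from RefSeq (GRCm38.p6), where the table used here did not cover *Sox3*. The *Sohlh1* promoter held 5, the *Neurog3* and *Sohlh2* promoters 1 each, the *Lin28b* promoter 2, each of the 3 *Upp1* promoters 1 or 2, and the *Lin28a* and *Ddit4* promoters 0, against a median of 1. Of 6 tested genes linked to SOHLH1 and SOHLH2 in spermatogonia or oocytes, 2 rose and 2 fell, with a median log2 fold change of 0.60. Over all genes tested, 6.21% rose and 4.70% fell. *Kit*, the receptor that marks differentiating spermatogonia, had 255 and 277 CPM in controls and 119 and 138 CPM in *Cnot3*-cKO cells and fell by 1.05 (standard error 0.09, adjusted p = 1.70e-05). *Lhx8*, a homeobox gene of the oocyte, fell from 8.04 and 8.13 CPM to 2.21 and 2.58 CPM, by 1.75 on the log2 scale (adjusted p = 3.86e-04). *Gfra1*, the GDNF receptor of stem cells, rose by 0.90 (adjusted p = 3.68e-05). *Figla*, an oocyte bHLH gene, rose by 1.16 (adjusted p = 0.00546), though not past the limit without *Cnot3*-cKO replicate 2.

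*Upp1* and *Ddit4*, the members also expressed widely outside the germ line, did not pass the test. *Upp1* (chromosome 11, 9118103 to 9136170, forward strand) had 33.2 and 38.7 CPM in controls and 26.7 and 24.7 CPM in *Cnot3*-cKO cells, from 1336 and 1628 against 605 and 707 reads. The groups did not overlap. Its log2 fold change was -0.48 (standard error 0.13, 95% interval -0.78 to -0.19, adjusted p = 0.0224), and it was past the limit without the expression filter (adjusted p = 0.00491) and under DESeq2 (adjusted p = 0.00830). *Upp1* was at -0.31 (adjusted p = 0.130) after pan-germ cell scaling. Leaving out a control gave -0.61 (adjusted p = 5.03e-04, replicate 1 left out) and -0.38 (0.0616, replicate 2 left out), and leaving out a *Cnot3*-cKO library gave -0.55 (0.0468) and -0.43 (0.135). In these 4 fits the group with 1 library is assumed to vary like the other. Over all genes tested, 6.21% rose and 4.70% fell at an adjusted p under 0.01 by edgeR. Of 12 other tested genes of pyrimidine salvage, synthesis and breakdown, 0 rose and 1 fell. That gene was *Uck1*, a uridine-cytidine kinase, with 29.7 and 35.7 CPM against 19.6 and 21.1 CPM, a log2 fold change of -0.68 (adjusted p = 0.00525), which was not past the limit without *Cnot3*-cKO replicate 1 or after pan-germ cell scaling.

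*Ddit4* (chromosome 10, 59949669 to 59951834, reverse strand) was counted 954 and 968 times in controls, and 412 and 631 times after deletion. Its level was 23.7 and 23.0 CPM in controls and 18.2 and 22.0 CPM in *Cnot3*-cKO cells. *Cnot3*-cKO replicate 2 came close to the controls. The log2 fold change was -0.21 (standard error 0.15, 95% interval -0.54 to 0.11, adjusted p = 0.364), and leaving out the *Cnot3*-cKO libraries in turn gave -0.093 (replicate 1 left out) and -0.37 (replicate 2 left out).

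Other genes around DDIT4 moved in both directions. Of 14 tested genes of mTORC1 and its inhibitors, 1 rose and 3 fell, against 6.21% and 4.70% of all genes tested. Their median log2 fold change was -0.063. The paralog *Ddit4l* rose from 7.15 and 4.28 CPM to 15.9 and 15.5 CPM, by 1.46 on the log2 scale (standard error 0.23, adjusted p = 0.00102). *Castor2*, from the family of arginine sensors, fell by 0.91, *Sesn3*, a sestrin that inhibits mTORC1, by 0.61 and *Rptor*, a core subunit, by 0.50. *Sesn3* and *Rptor* were not past the limit after pan-germ cell scaling or without *Cnot3*-cKO replicate 2. Of 10 genes induced with *Ddit4* by glucocorticoids or stress, 1 rose and 1 fell, against 6.21% and 4.70% of all genes tested. *Txnip* rose by 0.39 and *Tsc22d3* fell by 0.60, and the list median was 0.28. *Txnip* was not past the limit without either *Cnot3*-cKO library or after upper quartile scaling.

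**Figure D3:**
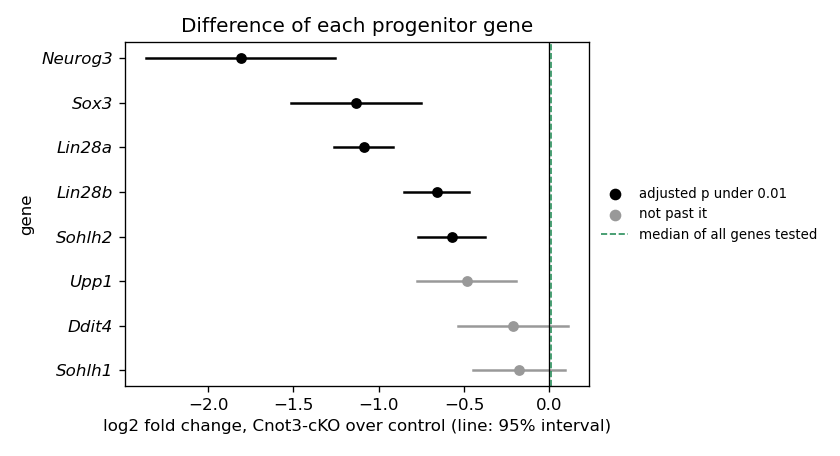
Log2 fold change of each progenitor gene, *Cnot3*-cKO over control, with 95% intervals (edgeR). Black marks genes with an adjusted p under 0.01 and grey those not past it. The values run from -1.81 in *Neurog3* to -0.18 in *Sohlh1*, and the intervals of *Ddit4* and *Sohlh1* include 0.

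Levels of different genes were compared as CPM per kilobase of exon (GENCODE M21). In controls the order was *Lin28a* (104 ± 1.90, SD, n = 2), *Sohlh1* (98.8 ± 20.5), *Sohlh2* (51.6 ± 2.03), *Upp1* (18.3 ± 1.99), *Lin28b* (18.0 ± 0.801), *Ddit4* (13.3 ± 0.273), *Sox3* (10.2 ± 1.39) and *Neurog3* (4.62 ± 0.256). The libraries of *Lin28a* and *Sohlh1* overlapped, as did those of *Upp1* and *Lin28b*, so their order is not established. In *Cnot3*-cKO cells *Sohlh1* came first at 87.4 ± 4.24 (SD, n = 2) and *Lin28a* followed at 48.8 ± 1.38, with *Sohlh2* at 34.7 ± 0.342. Next were *Upp1* (13.1 ± 0.728), *Ddit4* (11.5 ± 1.55) and *Lin28b* (11.4 ± 0.0193), of which *Ddit4* and *Lin28b* overlapped. *Sox3* at 4.65 ± 0.407 and *Neurog3* at 1.33 ± 0.252 were again lowest. The libraries of *Lin28a* and *Sohlh1* did not overlap in *Cnot3*-cKO cells.

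The members were also read against germ cell transcripts in the same library, which does not depend on the scaling. *Lin28a* had 0.578 and 0.582 reads per read of *Ddx4*, a pan-germ cell RNA helicase, in controls, against 0.264 and 0.265 in *Cnot3*-cKO cells. *Neurog3* had 0.0111 and 0.0106 reads per *Ddx4* read in controls, against 0.00334 and 0.00267 in *Cnot3*-cKO cells. The ratio to *Ddx4* was lower in both *Cnot3*-cKO libraries for every member but *Sohlh1*. That to *Dazl*, a germ cell RNA-binding protein gene, was lower in both for every member but *Sohlh1* and *Ddit4*. The share of all genes with such lower ratios was not computed. By CPM, 28.6% of all genes had both *Cnot3*-cKO libraries below both controls. After scaling to the pan-germ cell list, which moved the median of all genes from 0.0089 to 0.18, *Neurog3* (-1.63), *Sox3* (-0.95), *Lin28a* (-0.91) and *Lin28b* (-0.48) were still past the limit. Of the 9 pan-germ cell genes themselves, 2 fell, against 4.70% of all genes tested, and 7 passed in neither direction. The 2 were *Mov10l1* (log2 fold change -0.49) and *Piwil2* (-0.44), both piRNA pathway genes. Neither *Mov10l1* nor *Piwil2* was past the limit after pan-germ cell scaling. Both are in the list that sets that scaling, so this is no separate check of them. *Piwil2* was also not past the limit without *Cnot3*-cKO replicate 2.

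Lists of neighbouring spermatogonial states were counted in the same way. Of 9 other genes of undifferentiated spermatogonia, 6 fell and 0 rose, against 4.70% and 6.21% of all genes tested. Their median log2 fold change was -0.80. *Rarg*, the retinoic acid receptor of progenitors, had 39.1 and 42.6 CPM in controls and 15.7 and 15.9 CPM in *Cnot3*-cKO cells and fell by 1.37 (standard error 0.13, adjusted p = 3.14e-05). *Nanos3*, an RNA-binding protein gene of the same cells, fell by 1.07 (adjusted p = 0.00118), and *Zbtb16*, the PLZF gene, by 0.82 (adjusted p = 1.93e-04). *Foxo1*, a transcription factor gene, fell by 0.87 but was not past the limit under DESeq2, robust dispersions or pan-germ cell scaling. All of these 4, picked as the largest differences among those that passed, had both *Cnot3*-cKO libraries below both controls. In the whole list 7 of 9 genes were so ordered, and 1, *Taf4b*, had both *Cnot3*-cKO libraries on top. Over all genes tested these shares were 28.6% and 30.5%.

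Of 9 differentiating genes tested, 5 fell, against 4.70% of all genes, 0 rose and 4 passed in neither direction, with a median of -0.72. Besides *Kit*, *Dmrtb1*, a transcription factor gene of the mitosis-to-meiosis switch, fell by 1.54 on the log2 scale. It had 22.1 and 38.7 CPM in controls, against 9.75 and 11.2 CPM, and ranged from -1.90 to -1.09 without 1 library. *Meioc*, a meiotic RNA regulator, fell by 1.26, from 94.8 and 151 CPM to 43.2 and 59.4 CPM (not past the limit with robust dispersions). *Stra8*, which responds to retinoic acid, fell by 1.22. The 4 that did not pass were named after their values were seen. *Ccnd2* (0.26), *Sycp3* (0.092) and *Rec8* (0.084) were above 0, and *Rhox13* was at -0.72. Of 12 stem cell genes tested, 5 rose, 0 fell and 7 passed in neither direction, with a median of 0.59, against 6.21% of all genes that rose. Among those that did not pass, *Pax7*, named after its values were seen, had 3.43 and 2.90 CPM in controls and 0.971 and 2.16 CPM in *Cnot3*-cKO cells (log2 fold change -0.99, adjusted p = 0.0872), and *Nanos2*, likewise, was at -0.24. *Eomes*, a T-box gene, rose from 2.66 and 2.40 CPM to 5.34 and 7.86 CPM (log2 fold change 1.39, adjusted p = 0.00357, not past the limit without *Cnot3*-cKO replicate 2). *Id4*, whose transgene defined the sort, rose by 1.04 and *Bcl6b*, a GDNF-induced gene, by 0.65 (adjusted p = 0.00257). The differences between lists were not tested.

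**Figure D4:**
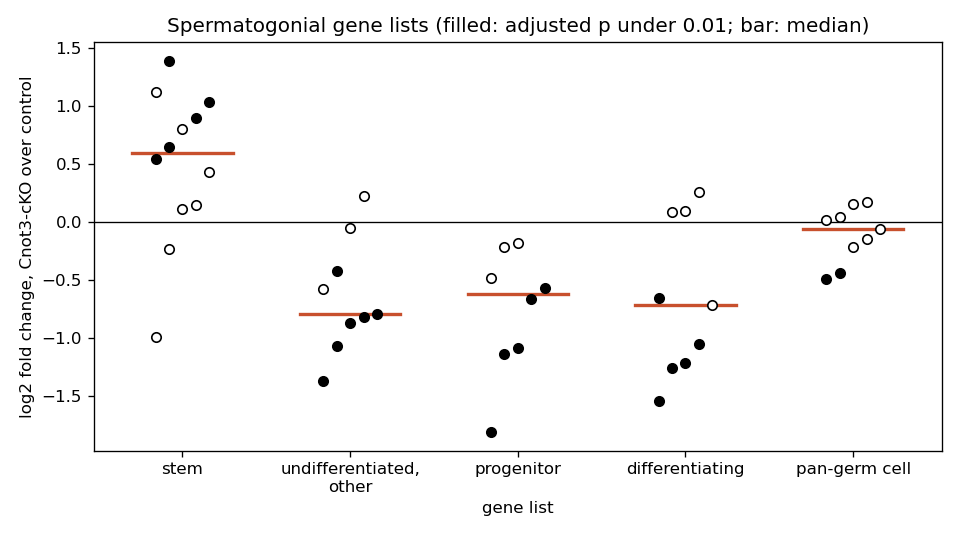
Log2 fold change (*Cnot3*-cKO over control) of each tested gene in 5 spermatogonial lists; filled points had an adjusted p under 0.01 (edgeR) and bars are list medians. The medians were 0.59 for stem, -0.80 for other undifferentiated, -0.62 for progenitor, -0.72 for differentiating and -0.064 for pan-germ cell genes.

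The genes nearest in pattern to each member were found by the root mean square difference of log2 CPM over the 4 libraries, after centring on the control mean, among genes of similar abundance. For *Neurog3* they were *Fbxo40* (0.138, log2 fold change -1.97) and *Cthrc1* (0.155, -1.66), and for *Sox3* they were *Cdh24* (0.0510, -1.08) and *Hcn2* (0.0654, -1.17). For *Lin28a* they were *Dgkd* (0.0421, -1.04) and *Reln* (0.0529, -1.05), for *Lin28b* *Hmgn2* (0.0109) and *Ykt6* (0.0148), and for *Sohlh2* *Dck* (0.0135) and *Tspan14* (0.0135). *Upp1* was nearest to *Ube2g2* (0.00579) and *Pdcd5* (0.0175), *Ddit4* to *Bex4* (0.0146) and *Surf2* (0.0196), and *Sohlh1* to *Oat* (0.0107) and *Pcx* (0.0213). With 4 libraries and many candidates such matches are a description only.

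The 4 members with the largest differences were the same under every way the counts were processed, though *Sox3* and *Lin28a* changed places without control replicate 2 and without *Cnot3*-cKO replicate 2. The differences of *Neurog3*, *Sox3*, *Lin28a* and *Lin28b* were past the limit under every alternative that kept all 4 libraries. Fits without 1 library leave a group with 1 library, so only their effect sizes are read here. Over all 14 alternatives run, the log2 fold changes ranged from -2.02 to -1.62, from -1.28 to -0.95, from -1.13 to -0.91 and from -0.72 to -0.48, respectively.

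**Figure D5:**
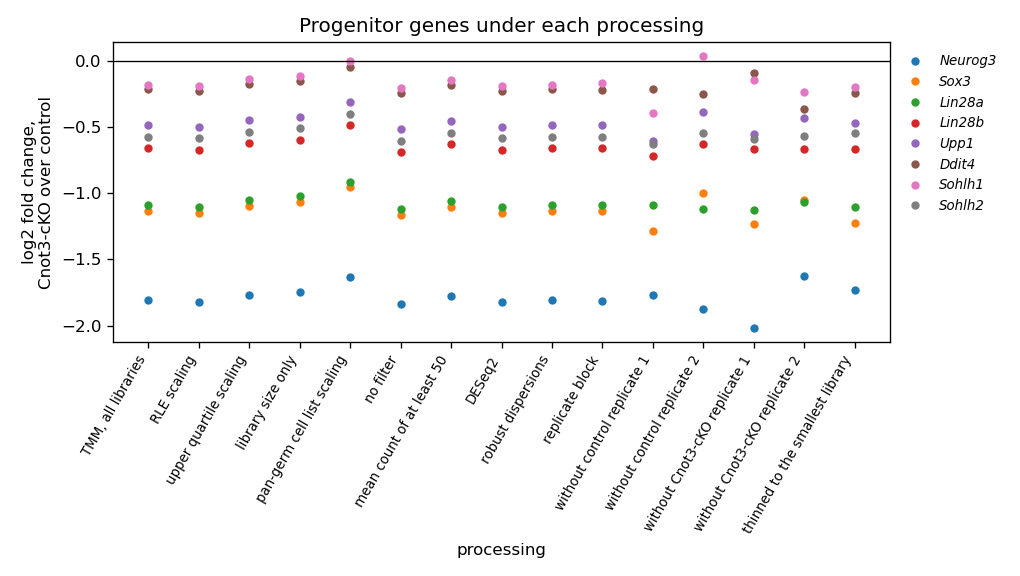
Log2 fold change of each progenitor gene (*Cnot3*-cKO over control) under the processing used and 14 alternatives, named on the horizontal axis. *Neurog3* stays lowest, and *Sohlh1* is above 0 under pan-germ cell scaling (0.0033) and without control replicate 2 (0.039).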

How the data were processed

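The deposited values were raw read counts per gene symbol, 1 file per library, and not normalized. The authors kept reads of sufficient mean Phred quality, ran STAR against mm10, and made the gene counts with featureCounts on GENCODE M24. The kit was stranded, but strand and multi-match settings are not given in the sources used here. Counts were compared with edgeR 4.0.16 in R 4.3.3: default expression filter, TMM scaling, quasi-likelihood F test, no covariates, Benjamini-Hochberg adjustment over all 23952 genes, all 4 libraries. A gene passed at an adjusted p under 0.01, the limit the authors used, and their fold limit of 2 was counted separately. Standard errors were derived from the F statistic.

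The members and lists were chosen with earlier results of these data known. Named were all members, the 4 genes of each list with the largest absolute difference among those that passed, *Cnot3*, and for each member the 2 genes nearest in pattern within 1 log2 CPM of its mean (prior count 2). Alternatives were RLE, upper quartile, library size and pan-germ cell scaling, no filter, a mean count of at least 50, DESeq2 1.42.0, robust dispersions, a replicate block, an adjusted p under 0.05 and leaving out each library. Thinning to the smallest library was added after the data were seen. Libraries of a group differed by more than counting noise (chi-square per degree of freedom 20.7 in controls and 6.77 in *Cnot3*-cKO). In simulated data for this comparison with 23952 genes, 147 of 200 genes changed 4-fold were recovered in the right direction. Of 200 changed 2-fold, 93 were. Unchanged genes called were 4 and 1 in these runs, and 1 when no gene was changed. Far fewer genes were changed there than were called in the data, and as many up as down. These rates therefore need not carry over. The common biological coefficient of variation was 0.145.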

Additional observations from a re-analysis of the deposited data

How the results depend on the processing

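Scaling to pan-germ cell genes left 344 genes lower, 79 of them more than 2-fold (1125 and 176 with TMM), and no filter gave 2006 and 285. Leaving out 1 library gave 792 to 2286 genes lower (2286 without control replicate 1 and 1769 without control replicate 2), and 217 to 271 genes lower by more than 2-fold (271 without *Cnot3*-cKO replicate 2). The member median was -0.58 with upper quartile scaling, -0.55 with library size only, -0.44 with pan-germ cell scaling and from -0.67 to -0.58 without 1 library. *Sohlh1* turned to 0.0033 with pan-germ cell scaling and ranged from -0.39 to 0.039 without 1 library. For these shifts the cause was not tested. The number of members that fell was between 4 and 6 under the alternatives that kept all 4 libraries, and 6 when the limit was 0.05. *Cnot3* stayed lower in all 14 alternatives, and was past the limit in each that kept all 4 libraries. The replicate numbers are shared by label only (correlation of deviations of the libraries numbered 1: 0.0822 over 15519 genes). Adding the replicate block gave 1968 genes that rose, 1637 that fell and 5 members that fell, and it changed no member's call. *Neurog3* had the fewest reads of the members (55 in its lowest library) and the widest interval. Only 1 of the 12 let-7 and *Mir98* precursor genes had enough reads to be tested.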

Other observations

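Of 12 tested genes of the response to tissue dissociation, 4 rose, 0 fell and 8 passed in neither direction at an adjusted p under 0.01 (edgeR), against 6.21% of all genes that rose and 4.70% that fell. The median log2 fold change was 0.58. Those that rose were the immediate early genes *Junb* (2.30, adjusted p = 0.00299, not past the limit without *Cnot3*-cKO replicate 2), *Fosb* (1.79), *Fos* (1.41) and *Jun* (1.33). The summed level of all 12 was 137 to 149 CPM in controls and 203 to 238 CPM in *Cnot3*-cKO libraries. The part of handling in the members' differences was not tested.

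The motifs searched in the members were also counted over all 15147 tested genes with a 3′ UTR, of which 6.80% were lower and 8.81% higher, with a median log2 fold change of 0.0053. Of 1384 genes with the let-7 heptamer, 9.25% were lower and 7.73% higher (median -0.052). Of 3598 genes with the Pumilio element, 9.59% were lower and 10.2% higher (median -0.032), and of 4123 with the AU-rich heptamer, 8.93% and 8.71% (median -0.037). Genes with these motifs had longer 3′ UTRs, with median lengths of 2216, 2017 and 1987 bases against 955. No test of these shares was made.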
